A study of Mus musculus with 12 samples.

Results

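The genes described here are the receptors, ligands and feedback inhibitor of the HGF and EGF receptor axis in mouse hepatocytes. They were taken by symbol from the deposited count table: the receptors Met, Egfr, Erbb2 and Erbb3, the ligands Hgf, Hbegf, Tgfa and Areg, and the inhibitor Errfi1. All 9 symbols were found among the 37141 gene rows, and 6 of the 9 passed the filter on low counts. Erbb2, Tgfa and Areg did not pass it and are given as counts.

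The study asked whether the Hippo pathway effectors YAP and TAZ matter for hepatocytes that regenerate after acute liver damage. All 12 libraries came from mice with the alleles Yapflox/flox; Tazflox/flox, and there were 3 libraries in each of 4 groups. The Yap/Taz KO + CCl4 group had received an adeno-associated virus (AAV8-Cre, 5e11 genome copies by tail vein) and, 3 weeks later, carbon tetrachloride (CCl4, 1 ml/kg in corn oil, intraperitoneal), with cells taken 48 hours after the toxin. For the ctrl + CCl4 group the labels name the toxin alone, for the Yap/Taz KO group the vector alone, and for the ctrl group neither. Cre was driven by the TBG promoter, which is active in hepatocytes, so other liver cells keep their floxed alleles. No control vector or corn oil control is named in the labels, so an effect of the vector cannot be told apart from that of the knockout, nor the oil from CCl4. The labels do not give the age of the mice. Each library held 500000 sorted cells from a collagenase-perfused liver; the sorting gate is not given. Whether the 3 samples of a group are 3 mice is not stated, and every p-value then reflects only how much the samples differ, possibly for technical reasons.

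HGF is made in the liver mainly by cells other than hepatocytes, chiefly stellate and endothelial cells, and acts on hepatocytes through its only receptor, MET. Hepatocytes also carry EGFR and ERBB3, and EGFR is engaged by HB-EGF, TGF-alpha and amphiregulin. ERBB3 has little kinase activity of its own and signals by pairing with another receptor of the family. ERRFI1 (also called MIG6) binds the EGFR kinase domain and dampens its activity. Together these receptors carry the main growth signals of liver regeneration.

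The libraries held 1617761 to 3028951 counts each, and levels are CPM, counts scaled to a common library size, here after TMM scaling, which evens out differences in RNA composition. Levels come from tags at the 3' end of transcripts. Yap1 averaged 14.5 ± 0.313 CPM in Yap/Taz KO + CCl4 and 56.6 ± 8.02 CPM in ctrl + CCl4, and 15.6 ± 6.30 CPM in Yap/Taz KO and 58.0 ± 16.1 CPM in ctrl (SD, n = 3 each). The TAZ gene Wwtr1 had a mean of 23.3 ± 2.97 CPM in Yap/Taz KO + CCl4 and 33.7 ± 1.08 CPM in ctrl + CCl4, and 14.7 ± 4.18 CPM in Yap/Taz KO and 38.9 ± 17.1 CPM in ctrl (SD, n = 3 each). Which exons are floxed is not stated, and a 3' tag outside the deleted part would check nothing. In the planned comparisons Yap1 differed by -1.96 on the log2 scale after injury (edgeR adjusted p = 0.0995) and -1.89 without (edgeR adjusted p = 0.102). Wwtr1 differed by -0.53 (edgeR adjusted p = 0.983) and -1.40 (edgeR adjusted p = 0.235), so none passed. Without the low-count filter Yap1 passed in both and Wwtr1 only without injury. With DESeq2 both genes passed without injury (adjusted p = 0.000282 for Yap1 and 0.0400 for Wwtr1). After injury DESeq2 gave neither an adjusted p. Averaged over both injury states, a comparison added after the data were seen, the log2 difference of Yap1 was -1.93 (SE 0.21; edgeR adjusted p = 0.00231). For Wwtr1 it was -0.97 (SE 0.22; edgeR adjusted p = 0.391), and it passed with DESeq2 (-0.97, adjusted p = 0.0331) and in edgeR without the low-count filter (-0.95, adjusted p = 0.0098).

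Hepatocyte markers exceeded every other marker list in every library, with summed levels of 68038 to 85762 CPM in Yap/Taz KO + CCl4 and 45967 to 61982 CPM in ctrl + CCl4, against 110010 to 137274 CPM in Yap/Taz KO and 94690 to 130011 CPM in ctrl. Albumin (Alb) and transthyretin (Ttr) were the most abundant of these 6 markers, and no marker of the list was at 0 in any library. The libraries also carried RNA of other liver cells. The 9 macrophage and Kupffer cell markers, led by Lyz2 and Cd5l, summed to 1557 to 2353 CPM in Yap/Taz KO + CCl4, 1964 to 3624 CPM in ctrl + CCl4, 189 to 861 CPM in Yap/Taz KO and 351 to 2133 CPM in ctrl. The 9 stellate cell and fibroblast markers, led by Dcn and Col1a2, summed to 1158 to 1333, 689 to 1521, 213 to 573 and 224 to 788 CPM in those groups in the same order. One uninjured library, ctrl replicate 1, stood apart, with the highest macrophage, stellate and endothelial sums of the 6 uninjured libraries. Its 4 erythroid markers, led by Hbb-bs and Hba-a1, summed to 1582 CPM, against 19.6 and 154 CPM in the other ctrl libraries and 19.8 to 119 CPM in the remaining groups.

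After CCl4 the ligand gene Hgf rose in both genotypes, 4.67-fold in Yap/Taz KO and 3.83-fold in ctrl, and the receptor gene Erbb3 fell in ctrl hepatocytes to 0.289 of its uninjured level. When both genotypes were averaged, a comparison added after the data were seen, Erbb3 fell to 0.407 and the inhibitor gene Errfi1 to 0.590 of the uninjured level. No member passed the test between genotypes, in uninjured or injured hepatocytes, or for a difference between their injury responses. The plot of all members by library shows these values.

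**Figure D1:**
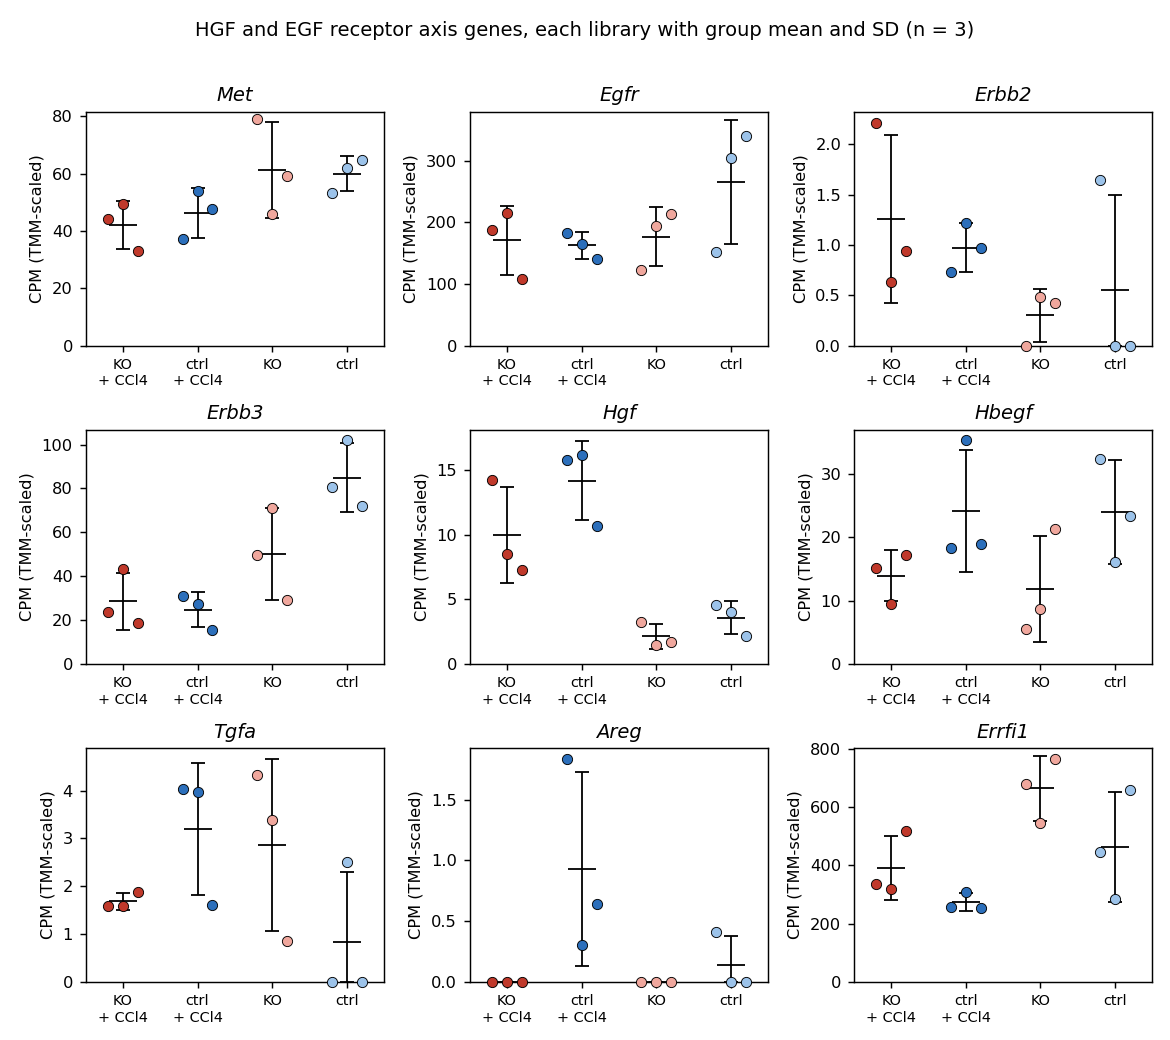
CPM after TMM scaling (y axis, linear, a different range in each panel) of the 9 genes in each of the 12 libraries, by group (x axis; KO stands for Yap/Taz KO). Points are libraries, the horizontal dash is the group mean and the bars are 1 SD (n = 3), stopped at 0. All 6 injured libraries lie above all 6 uninjured ones for Hgf, and every ctrl library lies above the other 9 for Erbb3.

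Hgf was the 1 of 6 tested members called in the injury response of Yap/Taz KO, where 17.8% of all 10780 tested genes passed (9.42% higher, 8.35% lower). In ctrl 2 of 6 members passed, Hgf higher and Erbb3 lower, against 22.5% of all tested genes (10.5% higher and the rest lower). Averaged over genotypes 3 of 6 passed, Hgf higher and Erbb3 and Errfi1 lower, against 33.0% of all tested genes (16.8% higher, 16.2% lower). Injured and uninjured libraries did not overlap for 2 of 6 members in Yap/Taz KO, Hgf above and Errfi1 below, against 39.4% of all tested genes (21.2% above, 18.1% below). In ctrl they did not overlap for 2 of 6, Hgf above and Erbb3 below, against 36.7% (19.1% above, 17.5% below). With 6 members, such shares are close to the background and are not a result about the axis. The median log2 difference of the tested members was -0.30 in the Yap/Taz KO response and -0.54 in the ctrl response, against 0.03 over all tested genes in each.

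Between genotypes edgeR called 0 of the 6 members and 0% of all tested genes, after injury and without injury, and 0% for the difference between injury responses. The targeted gene Yap1 was thus not called there either, so a missing call does not show that a member is unchanged. At an unadjusted p under 0.05 there were 613 genes after injury, 1020 genes without injury and 874 genes for the difference. DESeq2 called 25, 39 and 11 genes in these comparisons, and no member. It does not give every gene an adjusted p. After injury Yap1, Wwtr1, Erbb2, Tgfa and Areg had none, and without injury Erbb2, Tgfa and Areg had none. The lack of a DESeq2 call is thus not always a test result. Injured libraries of the genotypes did not overlap for 2 of 6 members, Errfi1 above and Hbegf below in Yap/Taz KO + CCl4, against 16.3% of all tested genes (8.50% above, 7.81% below). Uninjured ones did not overlap for 1 of 6, Erbb3, lower in Yap/Taz KO, against 10.7% (5.81% above, 4.92% below). The median log2 difference of the members was -0.03 after injury and -0.68 without, against -0.01 and -0.03 over all tested genes.

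Met, the HGF receptor, lies at chr6:17463800-17573980 on the plus strand (GRCm38, GENCODE M21, as for every gene position here). It measured 44.2, 49.3 and 33.0 CPM in Yap/Taz KO + CCl4 (replicates 1, 2 and 3, as throughout), 37.0, 54.0 and 47.7 CPM in ctrl + CCl4, 79.1, 45.8 and 59.2 CPM in Yap/Taz KO, and 53.1, 61.9 and 64.7 CPM in ctrl. Neighbouring groups overlapped at every step of the order, with Yap/Taz KO highest and Yap/Taz KO + CCl4 lowest. The log2 difference between injured and uninjured hepatocytes was -0.54 in Yap/Taz KO (SE 0.25, 95% interval -1.07 to -0.00; edgeR adjusted p = 0.159) and -0.37 in ctrl (SE 0.25, 95% interval -0.90 to 0.17; edgeR adjusted p = 0.328). Neither passed the threshold of 0.05. Averaged over both genotypes it was -0.45 (SE 0.18; edgeR adjusted p = 0.062), and it passed without ctrl replicate 1 (-0.50, adjusted p = 0.0466) or without Yap/Taz KO replicate 2 (-0.54, adjusted p = 0.0346). With scaling by library totals, which puts the median of all tested genes at 0.40 in the injury responses against 0.03 with TMM, the ctrl value was 0.00.

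Egfr, the receptor of the EGF family ligands named here, lies at chr11:16752203-16918158 on the plus strand, with Egfros annotated on the opposite strand. The counting strand is not stated, so reads of the pair cannot be told apart. Its level was 188, 216 and 108 CPM in Yap/Taz KO + CCl4, 183, 165 and 140 CPM in ctrl + CCl4, 122, 193 and 214 CPM in Yap/Taz KO, and 151, 305 and 340 CPM in ctrl. The ctrl group averaged highest, and its replicate 1 lay among the libraries of the other groups, so every pair of groups overlapped. In ctrl the injured minus uninjured log2 difference was -0.70 (SE 0.32; edgeR adjusted p = 0.139). Without ctrl replicate 1 it was -0.99 and passed (edgeR adjusted p = 0.0197), and over all settings the adjusted p lay between 0.0197 and 0.489. In Yap/Taz KO the difference was -0.05 (SE 0.32, 95% interval -0.74 to 0.63; edgeR adjusted p = 0.938). The difference between these responses was 0.65 (95% interval -0.32 to 1.62; edgeR adjusted p = 0.715), so it was not shown that the genotypes differ.

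Erbb3, the partner receptor with little kinase activity, lies at chr10:128567523-128589652 on the minus strand, with Mir6917 inside it on the same strand. It had 23.7, 43.3 and 18.5 CPM in Yap/Taz KO + CCl4, 30.8, 27.5 and 15.5 CPM in ctrl + CCl4, 49.8, 70.9 and 29.0 CPM in Yap/Taz KO, and 80.6, 102 and 71.8 CPM in ctrl. The lowest ctrl library was above every library of the other 3 groups, while those 3 groups overlapped at each neighbouring step. In ctrl hepatocytes Erbb3 fell after injury, averaging 24.6 ± 8.05 CPM in ctrl + CCl4 and 84.9 ± 15.6 CPM in ctrl (SD, n = 3 each), a log2 change of -1.79 (SE 0.38; edgeR adjusted p = 0.00333). The change held under every setting tried, between -1.98 and -1.54 with 1 library left out, and its adjusted p lay between 2.22e-07 and 0.0233. In Yap/Taz KO the means were 28.5 CPM with and 49.9 CPM without injury, a log2 difference of -0.80 (SE 0.37; edgeR adjusted p = 0.156). With the replicate number as a block the adjusted p was 0.0365. Averaged over both genotypes, the comparison added after the data were seen, Erbb3 changed by -1.30 (SE 0.26; edgeR adjusted p = 0.00153). That change passed under every setting, with adjusted p up to 0.00846.

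The injury responses of Erbb3 differed by 0.99 on the log2 scale, less negative in Yap/Taz KO, with a 95% interval of -0.13 to 2.10 (edgeR adjusted p = 0.634), so no difference between genotypes was shown. Uninjured Yap/Taz KO libraries all lay below the uninjured ctrl libraries (log2 difference -0.77, SE 0.37; edgeR adjusted p = 0.532). After injury the knockout difference was 0.22 (95% interval -0.58 to 1.01; edgeR adjusted p = 0.992), and its sign turned without ctrl + CCl4 replicate 3 or Yap/Taz KO + CCl4 replicate 2. Relative to Egfr, a ratio within each library that no scaling affects, there were 12.6 to 20.1 Erbb3 counts per 100 Egfr counts in Yap/Taz KO + CCl4 and at most 16.8 in ctrl + CCl4. Uninjured libraries had 13.5 to 40.7 in Yap/Taz KO and 21.1 to 53.3 in ctrl, so this ratio too was separate between injured and uninjured ctrl libraries and overlapped in Yap/Taz KO. The fall of Erbb3 in ctrl was accompanied by lower hepatocyte markers, all 6 of which fell, with Alb at -0.97 (SE 0.24; edgeR adjusted p = 0.0103). The part of this in the Erbb3 value was not tested. In bulk samples, fewer cells of a type and less RNA per cell cannot be told apart.

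Erbb2, the partner receptor without a ligand of its own, was near the detection limit. Its locus at chr11:98412470-98437716 (plus strand) overlaps Gm25048 and Mien1 on the other strand. The summed counts were 12 in Yap/Taz KO + CCl4, 9 in ctrl + CCl4, 2 in Yap/Taz KO and 4 in ctrl. All 3 Yap/Taz KO + CCl4 libraries (0.632 to 2.21 CPM) were above the Yap/Taz KO libraries (0 to 0.483 CPM). The ratio of summed counts was 3.95 with a 95% counting interval of 0.880 to 36.3, which includes 1 and covers counting error only.

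Hgf, the ligand of MET, lies at chr5:16553495-16620152 on the plus strand, with Gm43489 and Gm42975 annotated inside it on the same strand. Its level was 14.2, 8.53 and 7.22 CPM in Yap/Taz KO + CCl4, 15.7, 16.2 and 10.6 CPM in ctrl + CCl4, 3.25, 1.45 and 1.70 CPM in Yap/Taz KO, and 4.52, 4.03 and 2.13 CPM in ctrl. The injured groups overlapped each other, the uninjured groups overlapped each other, and the lowest injured library was above the highest uninjured one. Hgf rose in Yap/Taz KO by 2.22 on the log2 scale (SE 0.51, 95% interval 1.13 to 3.32; edgeR adjusted p = 0.00785), averaging 9.99 CPM with and 2.13 CPM without injury. It rose in ctrl by 1.94 (SE 0.48, 95% interval 0.91 to 2.96; edgeR adjusted p = 0.0094), with 14.2 ± 3.08 CPM after injury and 3.56 ± 1.26 CPM without (SD, n = 3 each). Both rises passed under every setting tried, with adjusted p between 0.00232 and 0.0476 in Yap/Taz KO and between 0.00322 and 0.0361 in ctrl. The uninjured values rest on 13 counts in Yap/Taz KO and 22 counts in ctrl, and the injured ones on 95 and 129 counts in those genotypes.

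Per 100 counts of its receptor Met in the same library, Hgf had 32.1, 17.3 and 21.9 counts in Yap/Taz KO + CCl4 and 42.6, 29.9 and 22.3 counts in ctrl + CCl4. The uninjured libraries had 4.11, 3.16 and 2.88 counts in Yap/Taz KO and 3.30 to 8.53 counts in ctrl. This ratio, which does not depend on library scaling, was thus separate between all injured and all uninjured libraries. The response did not differ detectably between genotypes, with a log2 difference of 0.29 and a 95% interval of -1.18 to 1.76 (edgeR adjusted p = 0.931), so that differences beyond 2-fold in either direction remained within the interval. Hgf was lower in Yap/Taz KO libraries in both states without passing, with log2 differences of -0.50 after injury (SE 0.43; edgeR adjusted p = 0.989) and -0.79 without (SE 0.56; edgeR adjusted p = 0.695), and the groups overlapped.

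RefSeq (GRCm38.p6) gives Hgf a pair of start sites, and their promoters are shown because Hgf was the member that rose in both genotypes. Each window runs from 250 bases before to 50 bases after the start, 5' to 3'. Capitals, here and in the later promoters, mark matches to the TEAD motif GGAATG, bound by the factors through which YAP and TAZ act, or to the AP-1 motif TGANTCA. Both strands were searched (GGAATG reads CATTCC on the other strand, and TGANTCA is its own reverse complement), and the motifs do not overlap in sequence. The TEAD motif was found in 14.7% and the AP-1 motif in 7.81% of all 32851 RefSeq promoters of this length. Neither Hgf window, at chr5:16553245-16553544 and chr5:16553651-16553950 on the plus strand, holds these letters.
Hgf promoter 1: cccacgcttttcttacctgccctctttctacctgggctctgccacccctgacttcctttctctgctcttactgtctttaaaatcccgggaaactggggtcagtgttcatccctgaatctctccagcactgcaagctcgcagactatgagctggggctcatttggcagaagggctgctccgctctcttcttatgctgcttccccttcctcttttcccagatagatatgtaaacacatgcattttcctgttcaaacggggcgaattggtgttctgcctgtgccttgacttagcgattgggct
Hgf promoter 2: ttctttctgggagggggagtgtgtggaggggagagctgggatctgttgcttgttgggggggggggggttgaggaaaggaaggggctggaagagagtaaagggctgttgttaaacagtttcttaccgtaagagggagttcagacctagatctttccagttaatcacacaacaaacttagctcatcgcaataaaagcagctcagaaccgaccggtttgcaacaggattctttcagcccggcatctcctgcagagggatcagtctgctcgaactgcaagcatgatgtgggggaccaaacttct
Of the other members in the RefSeq table, Met has an AP-1 match and Erbb2 and 1 of the start sites of Errfi1 have a TEAD match. Egfr, Tgfa and Areg have neither. The Met window is shown as the receptor's counterpart to those of Hgf. It lies at chr6:17463707-17464006 on the plus strand, and its match begins 54 bases before the start.
Met promoter: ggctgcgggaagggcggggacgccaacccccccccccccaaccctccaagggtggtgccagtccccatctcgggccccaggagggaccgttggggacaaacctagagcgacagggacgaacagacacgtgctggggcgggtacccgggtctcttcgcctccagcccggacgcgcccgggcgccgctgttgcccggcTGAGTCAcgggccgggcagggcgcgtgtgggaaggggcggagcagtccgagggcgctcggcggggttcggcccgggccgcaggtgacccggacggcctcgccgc
A match is a description of the letters and does not show that a factor binds there.

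Over the 12 libraries, Pearson's r of Hgf with summed marker levels was 0.86 for macrophage and 0.90 for monocyte and neutrophil markers. It was 0.76 for stellate and 0.27 for endothelial markers. With group means taken out, r was 0.49, 0.45, 0.06 and 0.53 in that order. For cholangiocyte and hepatocyte markers r was 0.86 and -0.85, and 0.07 and 0.13 with group means taken out. For erythroid markers these values were 0.16 and 0.28. For lymphocyte markers, which summed to at most 9.75 CPM, they were 0.22 and 0.72. Differences between these values were not tested, and with 3 libraries per group they do not single out a cell type. After injury 3 of 9 macrophage markers rose in Yap/Taz KO and 3 of 9 in ctrl, 5 of 5 tested monocyte and neutrophil markers rose in Yap/Taz KO and 2 of 5 in ctrl, and 5 of 9 stellate and fibroblast markers rose in Yap/Taz KO and 4 of 9 in ctrl. Of all tested genes 9.42% rose in Yap/Taz KO and 10.5% in ctrl, and no difference from these shares was tested. None of 7 endothelial markers, led by Kdr and Clec4g, passed in either genotype. Their summed level was 576 to 796 CPM in Yap/Taz KO + CCl4, 544 to 675 CPM in ctrl + CCl4, 287 to 768 CPM in Yap/Taz KO and 366 to 1481 CPM in ctrl. Among stellate markers the collagens rose, with Col1a1 at 4.51 in Yap/Taz KO (SE 0.78; edgeR adjusted p = 0.00113) and 3.87 in ctrl (SE 0.75; edgeR adjusted p = 0.00192). Lrat and Reln, markers of quiescent stellate cells, did not pass (Lrat 0.73, edgeR adjusted p = 0.45 in Yap/Taz KO, and 0.52, edgeR adjusted p = 0.592 in ctrl). The part of these cells in the Hgf rise was not tested. The library of ctrl replicate 1 had 2133 CPM of macrophage markers, above the 1964 CPM of the lowest ctrl + CCl4 library, and 788 CPM of stellate markers, above the 689 CPM of the lowest. Its 101 CPM of monocyte and neutrophil markers lay below all 6 injured libraries. Its Hgf level of 4.52 CPM was the highest of the 6 uninjured libraries and lay below all 6 injured ones. Without that library the ctrl rise of Hgf was 2.14 (edgeR adjusted p = 0.0111).

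**Figure D2:**
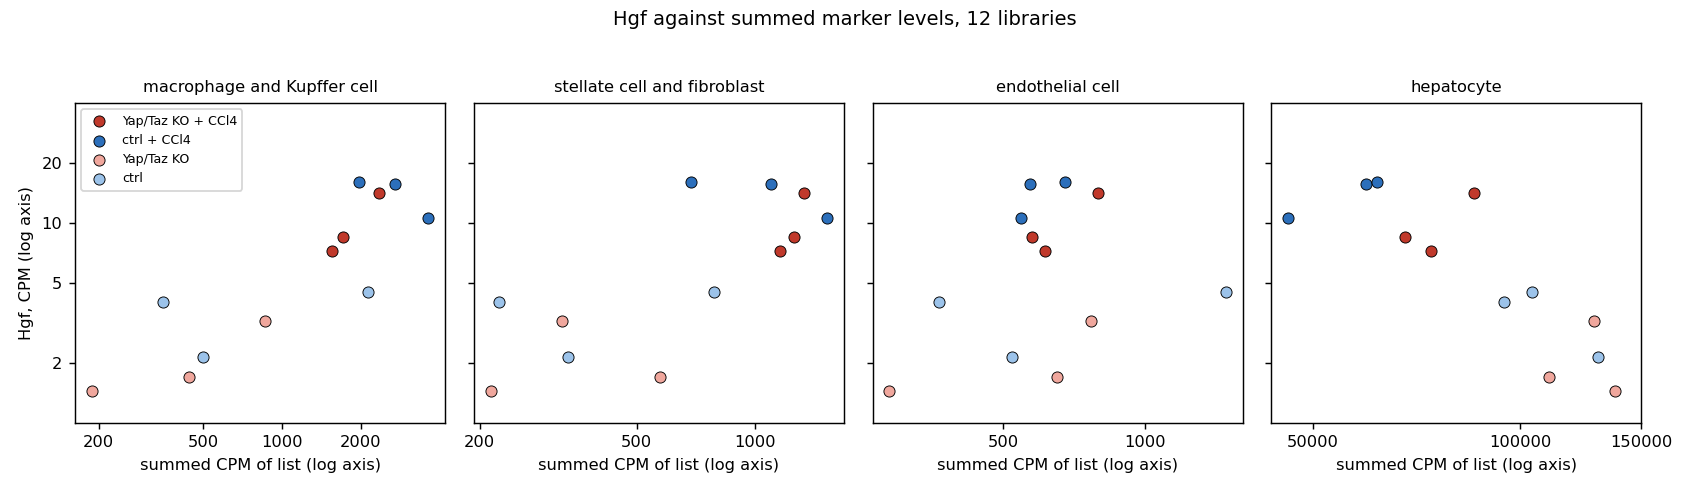
Hgf level (y axis, CPM, log scale) against the summed CPM of 4 marker lists (x axis, log scale), 1 point per library, coloured by group. The injured libraries lie above 7 CPM of Hgf and the uninjured ones below 5 CPM. The light blue point at the far right of the endothelial panel is ctrl replicate 1, with 1481 CPM of endothelial markers and 4.52 CPM of Hgf.

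Markers of monocytes and cholangiocytes were also higher in every injured library than in the uninjured libraries, and their part in the results was not tested. Monocyte and neutrophil markers, led by Plac8 and Ccr2, summed to 127 to 190 CPM in Yap/Taz KO + CCl4, 120 to 234 CPM in ctrl + CCl4, 4.83 to 16.2 CPM in Yap/Taz KO and 19.1 to 101 CPM in ctrl, with Csf3r at 0 in 5 of the 12 libraries and Ly6c2 or S100a8 at 0 in 3 uninjured ones. Spp1, which macrophages also express, rose in both genotypes among the 2 tested cholangiocyte and progenitor markers. These markers, led by Spp1 and Sox9, summed to 92.3 to 219, 380 to 459, 38.4 to 69.8 and 41.2 to 67.5 CPM in the same groups, with Krt7, Epcam or Krt19 at 0 in 6 libraries. Lymphocyte markers, led by Nkg7 and Ms4a1, never summed above 9.75 CPM, and Cd79a was at 0 in all 12 libraries.

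Hbegf, the heparin-binding ligand of EGFR, lies at chr18:36504927-36515805 on the minus strand. It measured 15.2, 9.48 and 17.3 CPM in Yap/Taz KO + CCl4, 18.3, 35.4 and 19.0 CPM in ctrl + CCl4, 5.41, 8.69 and 21.3 CPM in Yap/Taz KO, and 32.5, 16.1 and 23.5 CPM in ctrl. Injured libraries overlapped uninjured ones in each genotype, while all 3 Yap/Taz KO + CCl4 libraries were below all 3 ctrl + CCl4 libraries. The injury difference was 0.22 on the log2 scale in Yap/Taz KO (95% interval -0.78 to 1.23; edgeR adjusted p = 0.801) and 0.01 in ctrl (95% interval -0.95 to 0.96; edgeR adjusted p = 0.991). Its sign turned in Yap/Taz KO without Yap/Taz KO replicate 1, and in ctrl without ctrl replicate 2, ctrl replicate 3 or ctrl + CCl4 replicate 2. Between genotypes the log2 difference was -0.80 after injury (SE 0.45; edgeR adjusted p = 0.983) and -1.01 without (SE 0.47; edgeR adjusted p = 0.528). With 1 library left out the difference without injury ranged from -1.75, without Yap/Taz KO replicate 3, to -0.67, without Yap/Taz KO replicate 1.

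Averaged over both injury states, Hbegf differed between genotypes by -0.90 (95% interval -1.60 to -0.21), negative with any 1 library left out, at -1.27 to -0.72. Its adjusted p of 0.589 in edgeR did not pass. Only 0.0186% of all genes passed in that averaged comparison, and 0 of the 6 members were among them. There 812 genes had an unadjusted p under 0.05 in edgeR, and DESeq2 called 36 genes and no member. DESeq2 gave Erbb2, Tgfa and Areg no adjusted p in that comparison.

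Tgfa, which encodes TGF-alpha, lies at chr6:86195223-86275719 on the plus strand, opposite Gm43917. Its summed counts were 16 in Yap/Taz KO + CCl4, 29 in ctrl + CCl4, 17 in Yap/Taz KO and 5 in ctrl. All 5 ctrl counts were in replicate 2, whereas every library of the other groups held between 2 and 13 counts. The ratio of summed counts, ctrl + CCl4 over ctrl, was 3.71 with a 95% counting interval of 1.42 to 12.3. The interval covers counting error only, and the groups overlapped. In Yap/Taz KO the ratio was 0.620, with a counting interval of 0.293 to 1.30.

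Areg, which encodes amphiregulin and is known as a YAP target in human breast epithelial cells, lies at chr5:91139599-91148432 on the plus strand. No Areg count was found in the 6 libraries from Yap/Taz KO mice, against 8 counts over the 3 ctrl + CCl4 libraries and 1 count in ctrl. The ctrl + CCl4 libraries had 1.83, 0.305 and 0.644 CPM. A count of 0 allows up to 0.315 CPM in Yap/Taz KO + CCl4 and 0.479 CPM in Yap/Taz KO, taking 3 counts over the group as the limit. The pooled ctrl + CCl4 level of 0.878 CPM was 2.79-fold the floor of Yap/Taz KO + CCl4. This value takes the 8 ctrl + CCl4 counts as exact, so it is not a lower limit of the difference. The counting interval of ctrl + CCl4 starts at 0.379 CPM, and that of Yap/Taz KO + CCl4 ends at 0.388 CPM. Of the 8 counts, 5 were in ctrl + CCl4 replicate 1. Without the filter on low counts, edgeR gave an adjusted p of 0.913 for Areg between these injured groups over 19259 genes.

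Errfi1, the inhibitor of EGFR, lies at chr4:150853919-150868892 on the plus strand, with 1700045H11Rik on the other strand. Its level was 335, 320 and 519 CPM in Yap/Taz KO + CCl4, 257, 308 and 254 CPM in ctrl + CCl4, 681, 546 and 766 CPM in Yap/Taz KO, and 445, 284 and 659 CPM in ctrl. The order of group means was Yap/Taz KO, ctrl, Yap/Taz KO + CCl4 and ctrl + CCl4, and only the last pair did not overlap. Injured and uninjured Yap/Taz KO libraries did not overlap either, while those of ctrl did, through ctrl replicate 2. The injury differences were -0.76 in Yap/Taz KO (SE 0.28; edgeR adjusted p = 0.0795) and -0.76 in ctrl (SE 0.29; edgeR adjusted p = 0.071). The first passed without ctrl replicate 2 or 3 or Yap/Taz KO + CCl4 replicate 3 (adjusted p 0.0415 to 0.0431), and the second without ctrl replicate 2 (-1.01, adjusted p = 0.0179). Without the low-count filter both passed (adjusted p = 0.0283 in Yap/Taz KO and 0.0325 in ctrl), and with the replicate block the Yap/Taz KO difference did (-0.78, adjusted p = 0.0384). Averaged over both genotypes Errfi1 fell by 0.76 on the log2 scale (SE 0.20, 95% interval -1.19 to -0.33; edgeR adjusted p = 0.00903). It stayed called with any 1 library left out, with adjusted p from 0.00197 to 0.028, but not with scaling by library totals (-0.39, adjusted p = 0.141). The 6 hepatocyte markers had a median log2 difference of -0.87 in the same averaged comparison, against 0.03 over all tested genes. The part of that fall in the Errfi1 value was not tested.

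The injury responses of Errfi1 in the genotypes differed by 0.00 on the log2 scale (95% interval -0.87 to 0.86; edgeR adjusted p = 1). Errfi1 was higher in Yap/Taz KO libraries without passing, by 0.52 after injury (SE 0.28; edgeR adjusted p = 0.976), where the groups did not overlap, and by 0.52 without injury (SE 0.28; edgeR adjusted p = 0.579), where they did. Averaged over both injury states the difference was 0.52 (95% interval 0.09 to 0.95; edgeR adjusted p = 0.617), at 0.40 to 0.70 with 1 library left out. The sign of this difference is opposite to that of Hbegf, Hgf, Egfr and Erbb3 in the same averaged comparison, all of which were negative and did not pass. The promoter of the first RefSeq start site of Errfi1, at chr4:150853546-150853845 on the plus strand, is shown for its TEAD match on the other strand, which begins 65 bases before the start. The second start site of Errfi1 has no match.
Errfi1 promoter 1: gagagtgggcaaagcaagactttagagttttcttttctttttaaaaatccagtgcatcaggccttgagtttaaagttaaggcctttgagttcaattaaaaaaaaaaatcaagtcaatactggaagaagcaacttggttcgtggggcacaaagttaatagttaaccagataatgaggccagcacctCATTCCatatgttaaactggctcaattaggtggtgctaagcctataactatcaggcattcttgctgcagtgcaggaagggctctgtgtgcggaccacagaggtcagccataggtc

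**Figure D3:**
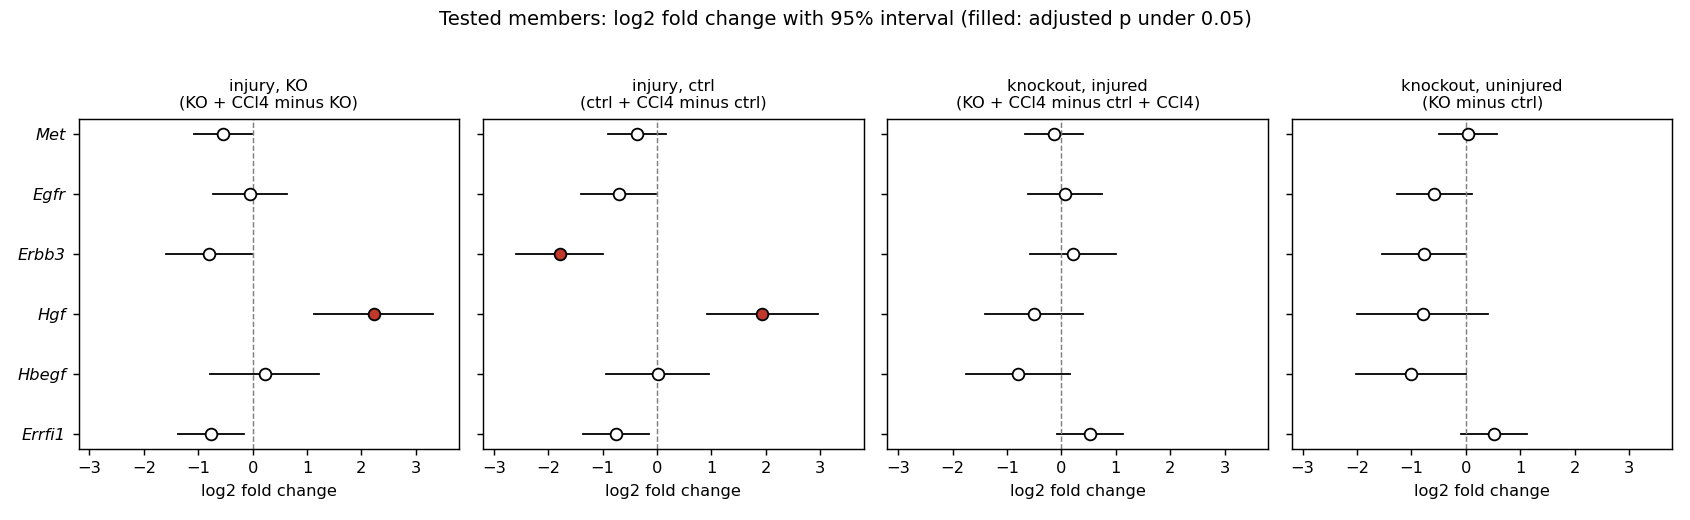
Log2 fold change (x axis) of the 6 tested members in the injury responses and knockout effects, with 95% intervals as lines. Filled points passed an adjusted p of 0.05 in edgeR: Hgf in both injury responses and Erbb3 in that of ctrl. Every interval of the knockout effects includes 0 or ends at it.

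**Figure D4:**
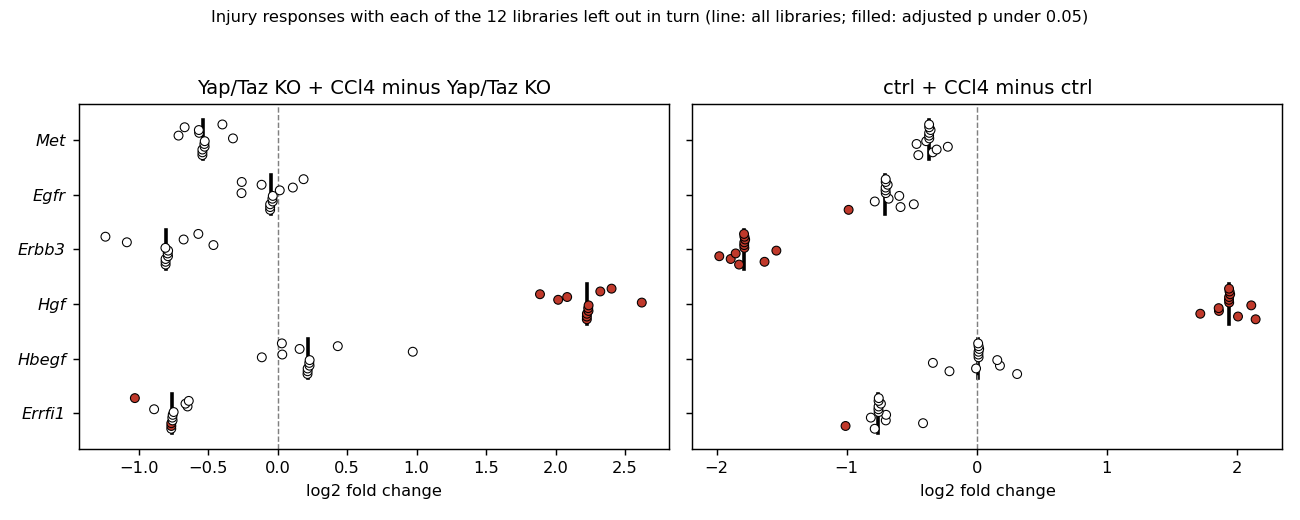
Log2 fold change (x axis) of the tested members in both injury responses, with each of the 12 libraries left out in turn (points) and with all of them (vertical line). Filled points passed an adjusted p of 0.05. All points of Hgf in both panels and of Erbb3 in the ctrl panel are filled, and the single filled point of Egfr, at -0.99, leaves out ctrl replicate 1.

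Among other ligands of these receptors, most were close to absent. Nrg2 had no count in any library. Egf had 5 counts in Yap/Taz KO + CCl4, 1 in ctrl + CCl4, 12 in Yap/Taz KO and 0 in ctrl, and Ereg had 6, 17, 6 and 0 counts in that order. Nrg1, a ligand of ERBB3, had 12 and 10 counts in Yap/Taz KO + CCl4 and ctrl + CCl4 and 0 and 2 counts in Yap/Taz KO and ctrl, while Epgn and Nrg3 had at most 3 counts in a group. Of the 3 that were tested, Btc and Nrg4 did not pass. Mst1 (macrophage stimulating protein), a relative of HGF made by hepatocytes, fell in both genotypes. Its level was 92.2 ± 6.29 CPM in Yap/Taz KO + CCl4 and 178 ± 21.6 CPM in Yap/Taz KO, a log2 change of -0.95 (SE 0.20; edgeR adjusted p = 0.00383; n = 3 each). In ctrl it was 67.5 ± 5.53 CPM after injury and 148 ± 24.5 CPM without, a change of -1.13 (SE 0.20; edgeR adjusted p = 0.000888; n = 3 each). The Yap/Taz KO fall was lost with scaling by library totals (adjusted p = 0.0746).

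Of the other receptors, Erbb4 had 14, 1, 12 and 19 counts and Mst1r, the receptor of MST1, had 3, 3, 1 and 1 counts in Yap/Taz KO + CCl4, ctrl + CCl4, Yap/Taz KO and ctrl. Neither passed the low-count filter; without it edgeR called Erbb4 in the ctrl response, as did DESeq2. Cd44, a cell surface glycoprotein that can act as a co-receptor of MET, was the only one that passed the filter and rose in both genotypes, by 2.78 in Yap/Taz KO (SE 0.51; edgeR adjusted p = 0.00169) and 2.08 in ctrl (SE 0.48; edgeR adjusted p = 0.00647). The rise was 3.47 in Yap/Taz KO without Yap/Taz KO replicate 1 and 2.89 in ctrl without ctrl replicate 1. It averaged 112 ± 25.4 CPM in Yap/Taz KO + CCl4 and 166 ± 35.0 CPM in ctrl + CCl4, against 16.4 ± 11.4 CPM in Yap/Taz KO and 38.9 ± 28.9 CPM in ctrl (SD, n = 3 each). Leukocytes also express Cd44. Some of the macrophage markers rose too, and the part of those cells in the Cd44 rise was not tested.

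HGF is secreted as an inactive precursor and EGF family ligands as membrane-bound ones, and proteases release them. Of 9 tested genes of these proteases and their inhibitors, 1 rose and 3 fell in Yap/Taz KO, where 9.42% of all tested genes rose and 8.35% fell. In ctrl 2 rose and 3 fell, against 22.5% of all tested genes called in either direction. In Yap/Taz KO 2 passed in all without Yap/Taz KO replicate 2 or without Yap/Taz KO + CCl4 replicate 1. The genes that fell were the same 3 in both. The median log2 difference of the 6 hepatocyte markers was -0.71 in Yap/Taz KO and -1.06 in ctrl, against 0.03 over all tested genes in each. The part of this fall in the values of the 3 genes and of Mst1 was not tested. Hgfac, the HGF activator protease made by hepatocytes, fell by 1.44 in Yap/Taz KO (SE 0.21; edgeR adjusted p = 0.000376) and by 2.07 in ctrl (SE 0.22; edgeR adjusted p = 1.65e-05). Its mean was 116 ± 4.24 CPM in Yap/Taz KO + CCl4 and 56.6 ± 12.5 CPM in ctrl + CCl4, against 313 ± 40.5 CPM in Yap/Taz KO and 237 ± 33.8 CPM in ctrl (SD, n = 3 each). Plg (plasminogen) fell by 0.77 in Yap/Taz KO (edgeR adjusted p = 0.0151) and 1.21 in ctrl (edgeR adjusted p = 6e-04), and Hpn (hepsin, a surface protease that can cleave the HGF precursor) by 0.62 (edgeR adjusted p = 0.0432) and 1.01 (edgeR adjusted p = 0.00223). Both lost the call in Yap/Taz KO with library totals, and Hpn also with RLE scaling (edgeR adjusted p = 0.051) or without the low-count filter (0.137). The Hpn call there was also lost without any Yap/Taz KO replicate, Yap/Taz KO + CCl4 replicate 1 or 2 or ctrl + CCl4 replicate 1 or 3 (adjusted p up to 0.151), and that of Plg without Yap/Taz KO + CCl4 replicate 1 or 3 or Yap/Taz KO replicate 2 (up to 0.0599).

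Plau (urokinase, which can activate HGF) rose in both genotypes, with 12.5 ± 8.52 CPM in Yap/Taz KO + CCl4 and 28.9 ± 6.57 CPM in ctrl + CCl4, against 1 count over the Yap/Taz KO libraries and 3.49 ± 5.20 CPM in ctrl (SD, n = 3 each). Its adjusted p in edgeR was 0.00453 in Yap/Taz KO and 0.0146 in ctrl. The ratio of summed Plau counts in Yap/Taz KO was 78.4, with a counting interval of 13.8 to 3121. In ctrl 23 of the 25 uninjured Plau counts were in replicate 1, and the log2 rise of 2.87 was 5.52 without that library. Adam10, a sheddase of EGF family ligands that is named after its values were seen, rose in ctrl (SE 0.36; edgeR adjusted p = 0.0242) by 2.30-fold, and lost the call without ctrl replicate 2 or 3 or ctrl + CCl4 replicate 1 or 3. Its log2 rise was 1.83 without ctrl replicate 1. The expression of Plau is not limited to hepatocytes. Some of the macrophage and stellate markers also rose, and the part of those cells in the Plau rise was not tested.

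The lists downstream of the receptors are set beside the 17.8% of all tested genes called in Yap/Taz KO and 22.5% in ctrl, with no test of the difference. Of 24 adaptors and kinases, Nras rose by 1.29 (edgeR adjusted p = 0.0122) and Sos1, the exchange factor that loads RAS, fell by 1.13 (edgeR adjusted p = 0.0278) in Yap/Taz KO, and edgeR called 0 in ctrl, with 5 at an unadjusted p under 0.05 and 1 by DESeq2. That count in ctrl was 7 with library totals, 4 without ctrl replicate 1 (Akt1, Gab2, Mapk3 and Pik3cb), and 1 without the low-count filter, with the replicate block or without ctrl replicate 2. Without ctrl replicate 1 the count in Yap/Taz KO was 4 too. The call of Nras was lost without Yap/Taz KO + CCl4 replicate 1 or without replicate 2 of Yap/Taz KO (adjusted p up to 0.0632), and that of Sos1 without Yap/Taz KO replicate 1 or 2 or any Yap/Taz KO + CCl4 replicate (up to 0.132). Scaling by library totals also removed the Sos1 call (edgeR adjusted p = 0.101). Of 13 tested feedback inhibitors edgeR called 0 in Yap/Taz KO, with 1 at an unadjusted p under 0.05 and 1 by DESeq2. It called 2 with library totals and 1 without the low-count filter or without ctrl replicate 1 or 3. In ctrl Cbl, a ubiquitin ligase that marks active receptors for degradation, rose by 2.44 (SE 0.50; edgeR adjusted p = 0.00268), and Spry4 fell by 1.30 (edgeR adjusted p = 0.048), a call lost when any library but ctrl replicate 1 was left out (adjusted p up to 0.152). The Spry4 call was also lost with RLE factors, library totals, the replicate block or no low-count filter (edgeR adjusted p 0.0529 to 0.134). Without ctrl replicate 1 the Cbl rise was 3.07 and 4 feedback inhibitors passed in ctrl. Cbl averaged 14.5 CPM in Yap/Taz KO + CCl4 and 22.7 CPM in ctrl + CCl4, against 8.09 CPM in Yap/Taz KO and 3.98 CPM in ctrl, and the difference between its responses was not called (edgeR adjusted p = 0.594). Of 8 tested ERK response genes, which follow receptor signalling, Ccnd1 (cyclin D1) rose by 1.68 in Yap/Taz KO (SE 0.47; edgeR adjusted p = 0.023). That call was lost without Yap/Taz KO + CCl4 replicate 3 or without replicate 2 or 3 of Yap/Taz KO (adjusted p up to 0.111), and the rise was 2.57 without replicate 1 of Yap/Taz KO. In ctrl edgeR called 0 ERK response genes, with 1 at an unadjusted p under 0.05 and 1 by DESeq2. It called 3 without ctrl replicate 1 (Ccnd1, Fos and Ier3), 2 without the low-count filter, and 1 with RLE factors, library totals, the replicate block or any 1 uninjured Yap/Taz KO library left out.

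Averaged over both genotypes, where 33.0% of all tested genes passed, 4 of 24 adaptors and kinases did, with Mapk3 (ERK1) at 0.91 (edgeR adjusted p = 0.00637), Nras at 0.93 (edgeR adjusted p = 0.00488), Gab2 at 1.21 (edgeR adjusted p = 0.0175) and Sos1 at -0.68 (edgeR adjusted p = 0.0367). Cbl at 1.63 (edgeR adjusted p = 0.00176) and the phosphatase gene Dusp5 at 1.51 (edgeR adjusted p = 0.0192) rose among the feedback inhibitors. Ccnd1 at 1.51 (SE 0.33; edgeR adjusted p = 0.0027) was the ERK response gene that passed. Sos1 lost its call when 8 of the 12 libraries were left out in turn, with adjusted p up to 0.106, and with library totals (edgeR adjusted p = 0.287). The difference between the injury responses was called for 0 of all tested genes by edgeR, with 874 at an unadjusted p under 0.05, for 11 by DESeq2 and for 115 by edgeR without the low-count filter.

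**Figure D5:**
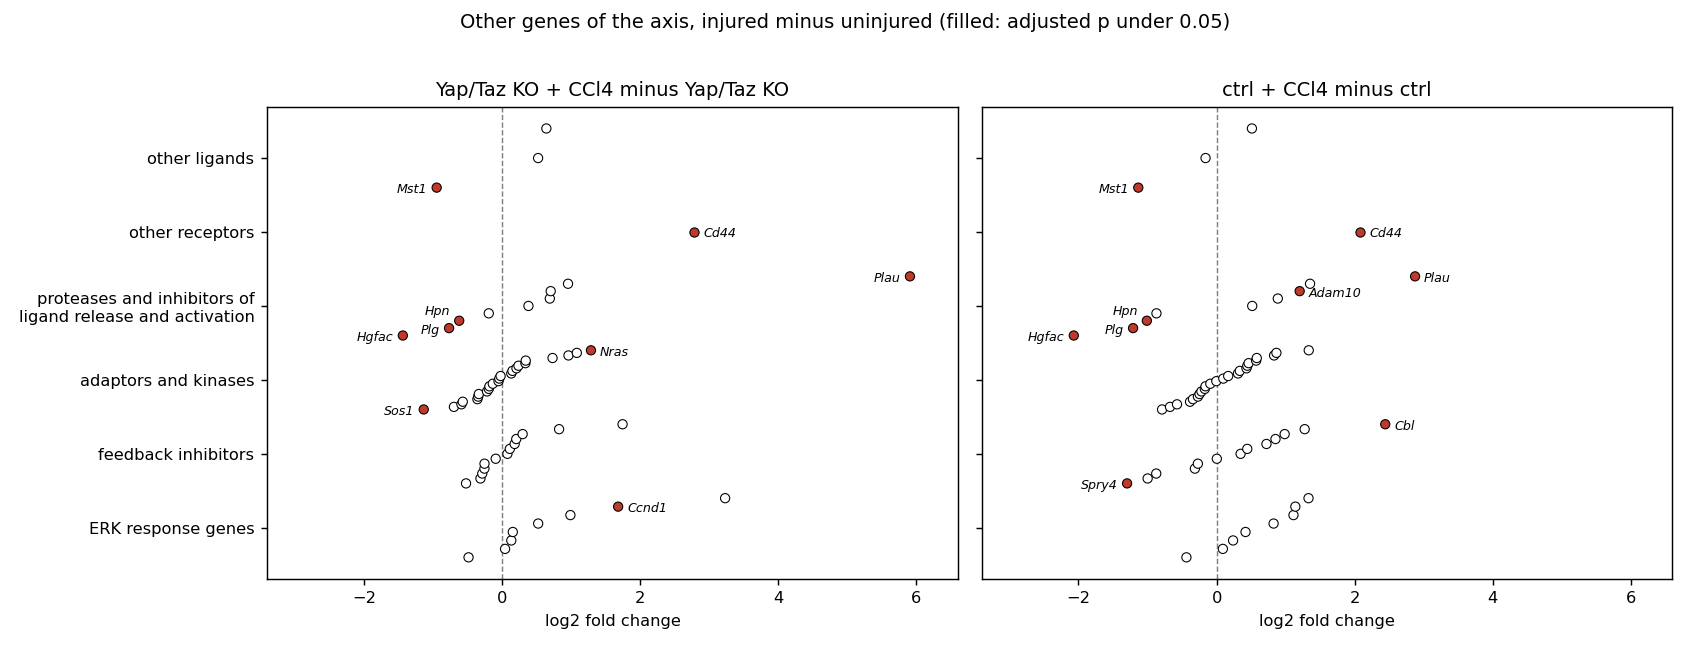
Log2 fold change (x axis) after CCl4 of the other tested genes of the axis, by list (y axis; within a list, genes are spread by rank for visibility), in Yap/Taz KO (left) and ctrl (right). Filled, named points passed an adjusted p of 0.05 in edgeR. Mst1, Hgfac, Plg and Hpn lie left of 0 and Cd44 and Plau right of 0 in both panels.

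The genes whose level most resembled each member were sought over the 12 libraries by Pearson's r of log2 CPM, among 7918 or 7919 abundant genes, as a description. The libraries fall into injured and uninjured ones, and a gene that differs between them resembles another on that ground alone. For Hgf these were the mitotic genes Plk1 (r = 0.97) and Cenpf (r = 0.97) and the leukocyte actin-bundling gene Lcp1 (r = 0.96). For Hbegf they were the immediate early genes Junb (r = 0.85) and Egr1 (r = 0.82), and Spats2 (r = 0.82). Erbb3 was most like the proteoglycan gene Sdc4 (r = 0.93), the adaptor gene Grb7 (r = 0.93) and Fbxo3 (r = 0.92). Errfi1 was most like Mpst (r = 0.93), Sfxn2 (r = 0.91) and Cnn3 (r = 0.90), Met like Magi1 (r = 0.91), Foxn3 (r = 0.87) and Wac (r = 0.85), and Egfr like Aktip (r = 0.90), Trappc12 (r = 0.89) and Wipi1 (r = 0.87).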

How the data were processed

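RNA of 12 hepatocyte samples, 3 in each of 4 groups taken from the sample titles, was made into QuantSeq 3' FWD libraries (Lexogen) from polyA RNA, per the labels' protocols. The deposited table gives raw counts for each gene symbol, whole numbers with differing totals per sample. Per the submitters' processing notes, FastQC, cutadapt and STAR 2.6.1d were used, with mm10 and GRCm38. The sources used here give no counter, annotation or strand setting, nor any use of molecular identifiers, so counting intervals cover counting error only. All pairs of libraries within a group differed by more than sampling noise (chi-square divided by its degrees of freedom 8.56 to 26.6).

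The test was edgeR's quasi-likelihood F test (edgeR 4.0.16, R 4.3.3) on all 12 samples with a coefficient for each group and TMM scaling. The filterByExpr filter (minimum count 10, minimum total 15) kept 10780 genes, over which p-values were adjusted by Benjamini-Hochberg at 0.05. The script was tested on simulated counts. The 17 alternatives were scaling by RLE or by library totals, testing all genes with counts, DESeq2 1.42.0, a block for the replicate number, and leaving out each sample in turn. Both averaged contrasts were added after the data were seen. Members sparse in counts were compared by ratios of summed counts with 95% exact intervals, or against a floor of 3 counts per group.

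The members, pathway lists and marker lists were chosen with earlier results of these data known. The text names every member, up to 4 genes per pathway list and comparison with the smallest adjusted p among those that passed, 3 genes most correlated with each tested member (mean log2 CPM at least 3), the 2 most abundant genes of each marker list and those at 0, and Yap1 and Wwtr1. One gene of a pathway list is not reported here, and the counts of that list leave it out. Positions come from GENCODE M21 (9 of 9 members matched), promoters from RefSeq on GRCm38.p6 (7 of 9 matched; not Erbb3 or Hbegf).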

Additional observations from a re-analysis of the deposited data

How the results depend on the processing

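Over 17 other settings, 667 of 714 values of the members kept their direction and side of the threshold, 11 gained a call, 1 lost it and 35 turned sign. A value to which DESeq2 gave no adjusted p was counted as not called. With library totals the log2 difference was 0.0019 for Met in the ctrl response, 0.31 for Egfr in the Yap/Taz KO response, -0.10 for Met between uninjured and -0.066 for Egfr between injured genotypes. With 1 library left out, values that turned sign at least once ranged as follows: in the Yap/Taz KO response Egfr -0.26 to 0.19 and Hbegf -0.11 to 0.97; in the ctrl response Hbegf -0.34 to 0.31; averaged over genotypes Hbegf -0.055 to 0.49; between injured genotypes Egfr -0.13 to 0.32, Erbb3 -0.22 to 0.46 and Met -0.26 to 0.021; between uninjured genotypes Met -0.18 to 0.21; averaged over injury states Met -0.15 to 0.040. For the genotype difference of the response they were Errfi1 -0.35 to 0.24, Hbegf -0.13 to 0.96, Hgf -0.059 to 0.68 and Met -0.35 to 0.044. The cause was not tested.

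Members called in the Yap/Taz KO response were 2 without the low-count filter, 3 with the replicate block and 1 to 2 with 1 library left out; in the ctrl response they were 2 to 4, with 4 without ctrl replicate 2, where Tgfa is set against 2 ctrl libraries at 0. All genes called in the Yap/Taz KO response numbered 1176 to 2331 with 1 library left out, the fewest without Yap/Taz KO + CCl4 replicate 1 (1176) or Yap/Taz KO replicate 2 (1190). Without the low-count filter 109 genes were called between injured genotypes, 210 between uninjured ones, 115 for the difference of responses and 229 averaged over injury states. DESeq2 called 25, 39, 11 and 36 genes in these comparisons, in that order. With 1 library left out the edgeR counts were 0 to 3, 0 to 1, 0 and 1 to 2. With the replicate block the averaged knockout effect called 1 gene, against 2 without it. Samples share only a replicate number: deviations of same-numbered samples from their group means correlated at -0.15 to 0.32, and in no pair of groups did all 3 samples correlate best with their own number. Depth limits Erbb2, Tgfa and Areg most, with 0 to 29 counts per group.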
